A study of Mus musculus with 4 samples.

Results

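The Ets factors of blood cells are transcription factors that share the ETS domain, a fold that grips DNA around a GGAA core. The 10 genes described here are *Erg*, *Fli1*, *Ets1*, *Ets2*, *Spi1*, *Spib*, *Elf1*, *Elf4*, *Etv6* and *Gabpa*. Their probes were found by the current gene symbol or by the gene name printed on the array. They had 14 of the 39429 probes, with 4 genes represented by more than 1 probe. The array listed 9 genes under their own symbols and *Spi1*, which encodes PU.1, under its older symbol *Sfpi1*. The *Spi1* probe was thus found by the current symbol.

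The arrays measured bulk RNA of Lin- fetal liver cells that all lacked *Ebf1*, the factor that opens the B lineage program. The 2 EMPTY samples carried the retrovirus without an insert, and the 2 *Mir195* samples carried the same virus with *Mir195*, which had been amplified from a human cell line. All were grown on OP9 stroma cells with SCF, IL-7 and Flt ligand at 10 ng/mL each, and 100 ng of RNA was labelled per array. The question was how *Mir195* changes gene expression in cells that cannot use *Ebf1*, and for these genes, whether the Ets factors moved with it. The infected cells were not sorted before RNA preparation as far as the sources say, so fewer cells of a type and less RNA per cell cannot be told apart. Nothing says that replicates came from separate embryos or cultures, so the p-values measure only the spread between these samples. All arrays lay on 1 slide, where each virus held positions of its own, so position and virus cannot be told apart.

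The signal at the 75th percentile was 902 to 1127 per array, and levels are given as log2 relative to it. Of the 12 early B lineage markers, 11 had a probe and 10 were well above background on at least 1 array. The *Ebf1* probe was well above background on all 4 arrays at 1.85 to 2.03, but whether it lies in the deleted part is not known, so it does not check the genotype. *Mir195* replicate 2 stood apart in the OP9 stroma markers, whose summed level was 17.3 there and 9.43 to 10.7 on the other arrays.

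Ets factors cooperate in blood formation. PU.1 and Spi-B bind the same kind of GGAA sites, and the dose of PU.1 separates myeloid from B cell fates. *Erg* and *Fli1* maintain stem cells and megakaryocytes, and *Ets1* acts with *Pax5* at B cell promoters. *Etv6* is a repressor needed for blood formation in bone marrow, and *Gabpa* pairs with *Gabpb* subunits. *Ets1* and PU.1 are also known to act on a promoter of *Ebf1*.

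The virus carried the precursor of miR-195. The mature mouse miRNAs below share its seed, bases 2 to 8, shown in capitals, and were taken from the RefSeq annotation of GRCm38.p6, where miR-195a-5p lies at chr11:70235062-70235082 on the plus strand.
mmu-miR-195a-5p: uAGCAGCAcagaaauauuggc
mmu-miR-195b: uAGCAGCAcagaaauaguagaa
mmu-miR-16-5p: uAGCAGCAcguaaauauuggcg
mmu-miR-15a-5p: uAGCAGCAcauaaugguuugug
mmu-miR-497a-5p: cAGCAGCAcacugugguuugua
Over its 21 bases, miR-195a-5p matched miR-16-5p position by position at 19 and miR-497a-5p at 12. The complement of the seed, TGCTGCT, was in 0 of the 14 probe sequences on the strand given, which says only that these letters are not in those windows. The untranslated regions themselves were not searched here. Among the 10 genes, *Etv6* is the only one in the list of predicted mouse targets that accompanied the study.

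What each probe can report depends on its sequence, so those on which the results turn are shown. Each probe is 60 bases long, and the longest run shared by probes of different Ets genes was 9 bases. The *Ets1* probe A_52_P232830 lies in the coding sequence of the ETS domain, and its capitals mark codons of the helix that reads the GGAA core. The *Spi1* and *Gabpa* probes were picked to stand beside it as the probe listed under an old symbol and the probe with the smallest standard error. Of the *Erg* probes, the first 30 bases are given.
Ets1 A_52_P232830: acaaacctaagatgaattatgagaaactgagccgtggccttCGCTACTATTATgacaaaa
Spi1 A_52_P498086: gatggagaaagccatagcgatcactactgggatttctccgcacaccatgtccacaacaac
Gabpa A_51_P364984: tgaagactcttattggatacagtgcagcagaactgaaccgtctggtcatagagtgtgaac
Erg A_55_P2015862: caccatgtatgatgtcatttgaagggaaac
Erg A_55_P2113832: tgcttgttttctttgaaatcagattcgttc
The position of the probes in the transcripts was not determined beyond this.

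All 10 Ets genes were detected on at least 1 array, but *Erg* only barely. A probe entered the comparison when it was well above background, by the flag of the scanner software, on both arrays of at least 1 virus. It also had to be free of outlier spots on every array. Both held for 13 of the 14 probes, of which 12 were well above background on all 4 arrays. The exceptions were both probes of *Erg*. Probe signals are not amounts of RNA that can be set against each other, because each probe binds with its own strength, so the levels below are given side by side without an order.

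**Figure D1:**
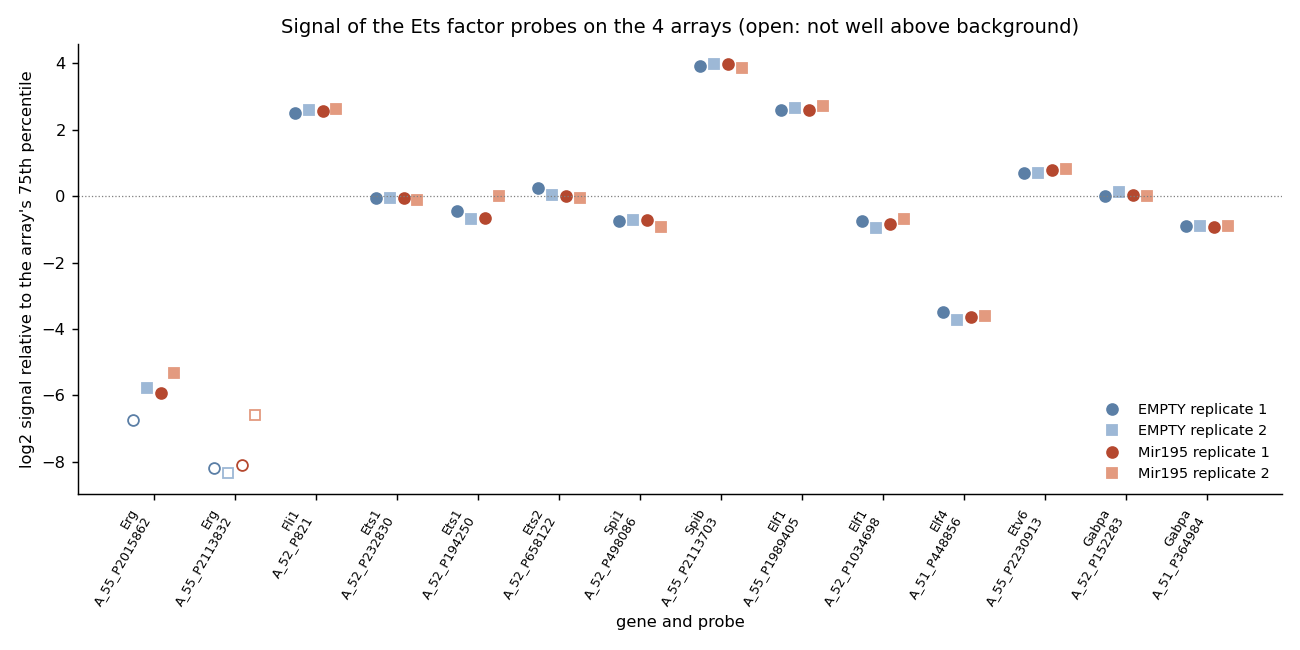
Level of each Ets factor probe on each array, as log2 signal minus the 75th percentile of that array, with filled markers where the probe was well above background and open markers where it was not. The leading probe of a gene, the one with the highest mean, stands first. The Erg probes lie between -8.35 and -5.32, and among the other probes Ets1 A_52_P194250 has the widest span between arrays, from -0.69 to -0.00.

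No Ets factor passed the test of a change between the viruses. Of the 13 tested probes, 0 had an adjusted p under 0.05 with limma, and over all 23722 tested probes the share was 0%. Unadjusted, a p under 0.05 was also reached by 0 of 13, against 8.34% of all tested probes, which were 1978. The lowest unadjusted p among the Ets probes was 0.162. Taking the leading probe of each gene, 5 genes were higher and 5 lower with *Mir195*, and the median log2 fold change was -0.01, beside 0.01 over all tested probes. The lower *Mir195* array exceeded the higher EMPTY array for 1 of the 13 probes, against 23.4% of all tested probes. The reverse held for 2 of 13, against 14.4%. The remaining 10 probes overlapped. With 2 arrays against 2, an exact permutation test cannot give a p below 0.333.

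Leaving *Erg* aside, the 12 other tested probes had log2 fold changes between -0.16 and 0.24, with standard errors of 0.11 to 0.25 and adjusted p-values of 0.848 to 0.999. No tested probe reached an absolute log2 fold change of 1. Their 95% intervals reached down to 0.703-fold, for *Ets2*, and up to 1.87-fold, for the second *Ets1* probe, so changes of those sizes could not be told from none.

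**Figure D2:**
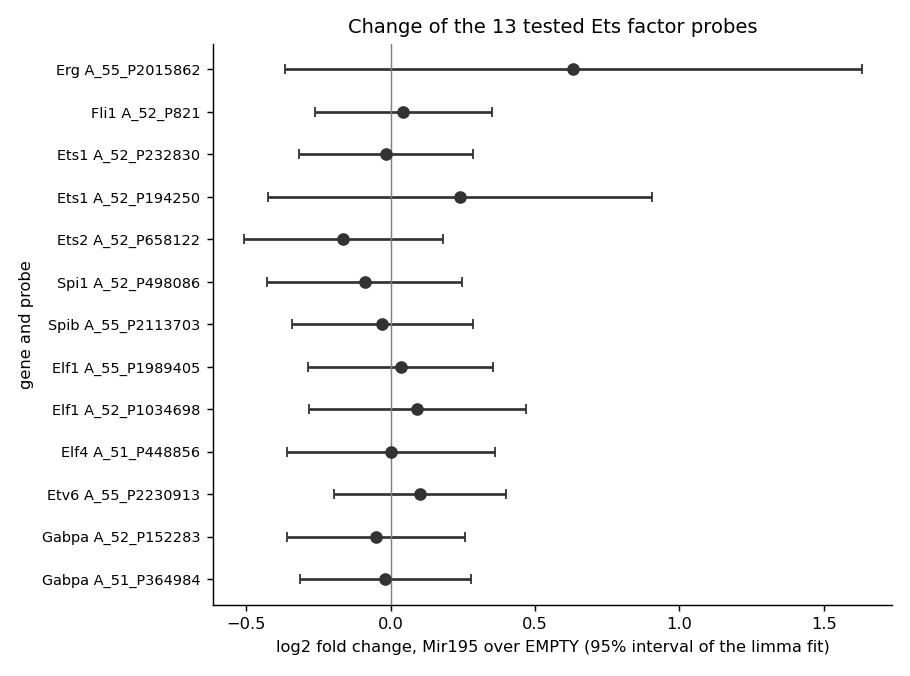
Log2 fold change of Mir195 over EMPTY for the 13 tested probes, with points at the estimate and bars for the 95% interval of the limma fit. Every interval includes 0, and that of Erg is the widest, from -0.37 to 1.63.

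*Erg* and *Fli1* form the subfamily known from stem cells, megakaryocytes and endothelium. The *Erg* probe A_55_P2015862 read -6.73 and -5.79 with EMPTY and -5.93 and -5.32 with *Mir195*. It was lowest on EMPTY replicate 1 and highest on *Mir195* replicate 2, and the groups overlapped. The log2 fold change was 0.63 with a standard error of 0.38 (adjusted p = 0.790), or 1.55-fold, with a 95% interval of 0.775-fold to 3.1-fold. The probe was well above background on 1 of 2 EMPTY arrays and on 2 of 2 *Mir195* arrays. It thus entered the comparison only through the group where it was higher, so the estimate describes signals near background and gives no support for a direction.

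The raw spot shows how close to background these values are. The mean signal of that *Erg* spot was 75.2 and 81.7 with EMPTY and 77.5 and 86.2 with *Mir195*. The 153 negative control spots averaged 57.0 to 58.9 per array, with a standard deviation of 2.80 to 5.78. The *Erg* spot was thus brighter than the negative control mean on every array. On EMPTY replicate 1 it was dimmer than the brightest negative control spot, at 100.0, while on the other arrays it exceeded the brightest, which were 73.8 to 76.7. The second *Erg* probe, A_55_P2113832, read 61.8, 62.4, 62.5 and 67.8 in the same order and stayed near background on every array, so no fold is given for it.

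**Figure D3:**
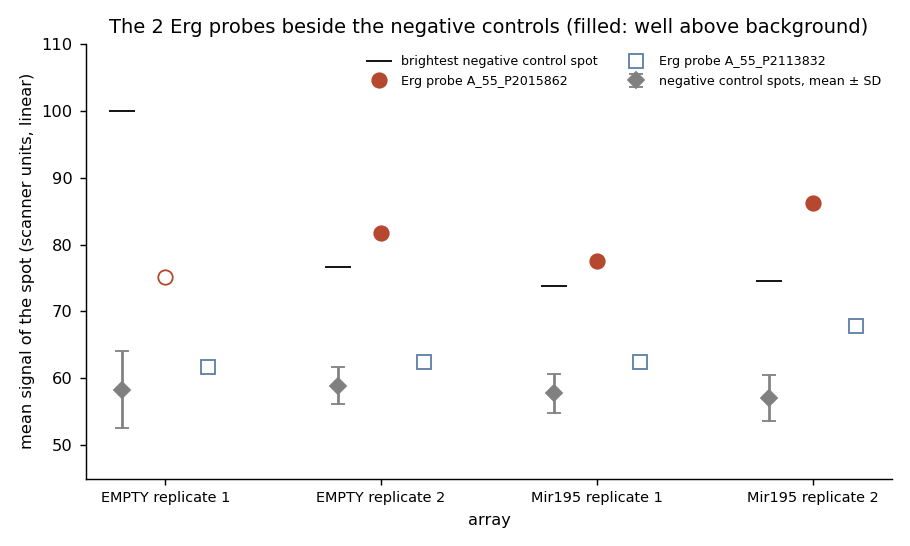
Mean signal of the spots of both Erg probes on a linear scale for each array, beside the mean and standard deviation of the 153 negative control spots and the brightest of them. Filled markers are well above background. The probe A_55_P2015862 lies above the negative control mean on all 4 arrays, and A_55_P2113832 is open on all of them.

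The difference of *Erg* depended on single arrays. Without EMPTY replicate 1 the log2 fold change was 0.16, and without EMPTY replicate 2 it was 1.1. In the values normalized by the authors, the same probe read -6.19, -6.11, -6.37 and -5.29, so that 3 arrays lay close together and *Mir195* replicate 2 stood above them, and the log2 fold change was 0.32. *Mir195* replicate 2 was also the array with the higher stroma markers, and their part in the *Erg* value was not tested. Of the 10 stroma markers, 8 were detected and Dcn and Lum were not. Endothelial cells also express *Erg*. Of their 6 markers 3 were detected, and *Tek*, *Tie1* and *Emcn* were not. The summed level was 3.19 to 3.38 with EMPTY and 3.01 to 3.45 with *Mir195*, with *Kdr* the largest part. On *Mir195* replicate 2, *Cdh5* (-2.18) and *Pecam1* (-0.35) were at their highest and *Kdr* (1.01) at its lowest. The part of such cells in the *Erg* value was not tested.

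*Fli1* read 2.51 and 2.59 with EMPTY and 2.57 and 2.61 with *Mir195*. The 4 arrays lay within a narrow band and the groups overlapped. Its log2 fold change was 0.04 with a standard error of 0.12 (adjusted p = 0.961) and a 95% interval of 0.834-fold to 1.27-fold. *Fli1*, unlike *Erg*, was therefore measured well above background on every array.

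*Ets1* and *Ets2* respond to Ras signalling and *Ets1* is a known regulator of lymphocytes. In the mouse genome *Fli1* lies beside *Ets1* on chromosome 9 and *Erg* beside *Ets2* on chromosome 16, with 0 protein-coding genes between the partners of either pair in RefSeq. The 2 *Ets1* probes differed in their values on *Mir195* replicate 2. The leading probe, A_52_P232830 in the ETS domain, read -0.07 and -0.05 with EMPTY and -0.05 and -0.11 with *Mir195*, a log2 fold change of -0.02 with a standard error of 0.11 (adjusted p = 0.987). The groups overlapped and the values were nearly level.

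The other *Ets1* probe, A_52_P194250, read -0.45 and -0.69 with EMPTY and -0.66 and -0.00 with *Mir195*. Only *Mir195* replicate 2 was higher than the rest. This gave a log2 fold change of 0.24 with a standard error of 0.25 (adjusted p = 0.891). Without *Mir195* replicate 2 it was -0.09, and without *Mir195* replicate 1 it was 0.57 (adjusted p = 0.178). In the fits without an array, the *Mir195* or EMPTY group left with 1 sample is assumed to vary like the other group. *Mir195* replicate 2, the array with the higher stroma markers, gave the highest value for this probe, *Erg*, *Fli1*, both *Elf1* probes and *Etv6*. The same array gave the lowest value for *Ets1* A_52_P232830, *Ets2*, *Spi1*, *Spib* and *Gabpa* A_52_P152283. The part of the stroma markers in these values was not tested.

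*Ets2* was lower with *Mir195* on both arrays, but by less than the test could separate from spread. It read 0.23 and 0.03 with EMPTY and -0.00 and -0.06 with *Mir195*. The groups did not overlap, although EMPTY replicate 2 and *Mir195* replicate 1 lay close together. The log2 fold change was -0.16 with a standard error of 0.13 (adjusted p = 0.848) and a 95% interval of 0.703-fold to 1.13-fold. It kept its direction under each alternative tried, from -0.26 to -0.06. With the groups apart, leaving out 1 array could not turn it.

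*Spi1* and *Spib* encode PU.1 and Spi-B, the subfamily most tied to myeloid and B cells. *Spi1* read -0.75 and -0.71 with EMPTY and -0.72 and -0.92 with *Mir195*. *Mir195* replicate 2 was the lowest, and the other arrays lay close to each other. The log2 fold change was -0.09 with a standard error of 0.13 (adjusted p = 0.920). On both *Mir195* arrays the software did not mark the *Spi1* spot as found, although its signal was well above background. Such spots made up 5.79% to 7.18% of the spots well above background on each array. *Spib* read 3.92 and 3.97 with EMPTY and 3.97 and 3.86 with *Mir195*. The groups overlapped, and the log2 fold change was -0.03 with a standard error of 0.12 (adjusted p = 0.975), with a 95% interval of 0.789-fold to 1.22-fold.

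Genes that PU.1 is known to act on were measured as a list of 10, of which 9 were tested. Of these, 7 were higher and 2 lower, the median log2 fold change was 0.05, and 0 passed the threshold. *Flt3*, the receptor for Flt ligand, was the one gene of the 9 whose groups did not overlap, beside 23.4% higher and 14.4% lower over all tested probes, and is named for that reason alone. It read 4.64 and 4.70 with EMPTY and 4.76 and 4.89 with *Mir195*, and the log2 fold change was 0.16 (adjusted p = 0.840). The myeloid markers, of which 8 of 10 were detected, had a summed level of 13.3 to 15.5 with EMPTY and 15.6 to 15.7 with *Mir195*, and their part in these values was not tested.

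*Elf1* and *Elf4* are activators expressed across lymphoid cells. The leading *Elf1* probe read 2.60 and 2.65 with EMPTY and 2.59 and 2.73 with *Mir195*, a log2 fold change of 0.03 with a standard error of 0.12 (adjusted p = 0.971). The second *Elf1* probe read -0.73 and -0.96 with EMPTY and -0.83 and -0.68 with *Mir195*, and its log2 fold change was 0.09 with a standard error of 0.14 (adjusted p = 0.929). Both pairs of groups overlapped. *Elf4*, on chromosome X, read -3.50 and -3.74 with EMPTY and -3.64 and -3.60 with *Mir195*. Both *Mir195* values fell between the EMPTY values, and the log2 fold change was 0.00 with a standard error of 0.14 (adjusted p = 0.999). All 10 T and NK markers were tested. Of these, 0 were higher and 10 lower with *Mir195*, the median log2 fold change was -0.30, and 0 passed the threshold. Groups lay apart in 4 of them, all lower, beside 14.4% lower over all tested probes. The part of such cells in the values of the Ets factors was not tested.

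*Etv6* was the one Ets gene whose leading probe lay higher on both *Mir195* arrays. It read 0.70 and 0.71 with EMPTY and 0.79 and 0.82 with *Mir195*. Each pair was tight, so the groups did not overlap. The log2 fold change was 0.10, or 1.07-fold, with a standard error of 0.11 (adjusted p = 0.899) and a 95% interval of 0.874-fold to 1.32-fold. Under median scaling the log2 fold change was 0.00. *Etv6* is the gene on the list of predicted targets.

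*Gabpa* read 0.02 and 0.13 with EMPTY and 0.03 and 0.02 with *Mir195* at its leading probe, with a log2 fold change of -0.05 and a standard error of 0.12 (adjusted p = 0.955). EMPTY replicate 2 was the highest. At A_51_P364984 it read -0.89 and -0.89 with EMPTY and -0.92 and -0.89 with *Mir195*. The EMPTY values differed only in a later decimal, and the *Mir195* values lay just below them. This was a log2 fold change of -0.02 with a standard error of 0.11 (adjusted p = 0.984).

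**Figure D4:**
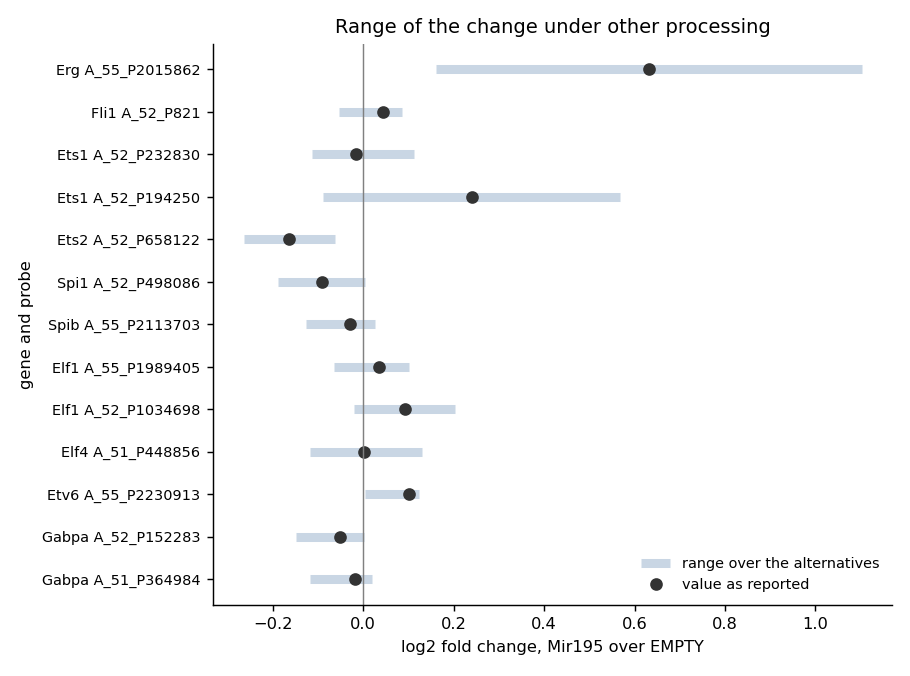
Log2 fold change of each tested probe as reported, shown as points, with bars for its range over the alternative ways of processing. The bar of Erg runs from 0.16 to 1.1, that of Ets2 lies below 0, and most others cross 0.

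The rest of the family was covered by a list of 16 other Ets genes, all on the array. Of these, 13 were above background on some array, while *Elf3*, *Elf5* and *Etv2*, known from epithelium and endothelium, were not. Of the 12 tested, 10 were higher and 2 lower, with a median log2 fold change of 0.12, and 0 passed the threshold. Over all tested probes 12585 of 23722 were higher. The median was 0.02 under median scaling, 0.07 without EMPTY replicate 1 and 0.22 without EMPTY replicate 2. Groups lay apart in 7 of the 12, of which 6 were higher and 1 lower, beside 23.4% higher and 14.4% lower over all tested probes. *Fev*, a factor of serotonin neurons, read -5.25 and -5.55 with EMPTY and -4.74 and -5.15 with *Mir195*. It was well above background on every array, but at low levels that overlap those of *Erg*. Its log2 fold change was 0.45 (adjusted p = 0.659), or 0.25 without *Mir195* replicate 1 and 0.65 without *Mir195* replicate 2. *Elk4*, a partner of SRF, read -0.65 and -0.66 with EMPTY and -0.42 and -0.33 with *Mir195*, a log2 fold change of 0.27 (adjusted p = 0.640). *Etv1* read -3.91 and -3.84 with EMPTY and -4.38 and -3.99 with *Mir195*, a log2 fold change of -0.32 (adjusted p = 0.746). The *Etv1* direction turned with another background correction, to 0.04.

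Proteins that work with Ets factors were a list of 14, of which 12 were tested. Of these, 8 were higher and 4 lower, the median log2 fold change was 0.06 and 0 passed the threshold. *Tal1*, a basic helix-loop-helix factor that meets Ets factors at blood enhancers, read -3.88 and -3.51 with EMPTY and -3.27 and -3.23 with *Mir195*. Its log2 fold change was 0.45 with a standard error of 0.17 (adjusted p = 0.583), or 0.27 without EMPTY replicate 1 and 0.63 without EMPTY replicate 2. *Lmo2*, which bridges such complexes, read 3.27 and 3.28 with EMPTY and 3.37 and 3.42 with *Mir195*, a log2 fold change of 0.11 (adjusted p = 0.886).

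The list of known targets of *Fli1* and *Erg* in megakaryocytes had 8 genes, of which 5 were detected and tested. Of these, 3 were higher and 2 lower, and 0 passed the threshold. The median log2 fold change was 0.23, but 0.01 without EMPTY replicate 1 and 0.04 without *Mir195* replicate 2. *Itgb3*, the integrin subunit of platelets, read 3.39 and 3.14 with EMPTY and 2.96 and 2.82 with *Mir195*, and its log2 fold change was -0.38 with a standard error of 0.15 (adjusted p = 0.608). *Gp9*, which encodes a subunit of the platelet von Willebrand factor receptor, read -2.04 and -1.85 with EMPTY and -1.57 and -1.66 with *Mir195*, a log2 fold change of 0.33 with a standard error of 0.13 (adjusted p = 0.624). *Gp1ba*, *Gp6* and *Ppbp* were not detected. The list is the same as that of the megakaryocyte markers, whose summed level was 9.20 to 10.8 with EMPTY and 7.48 to 8.19 with *Mir195*, and the part of such cells in these values was not tested.

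**Figure D5:**
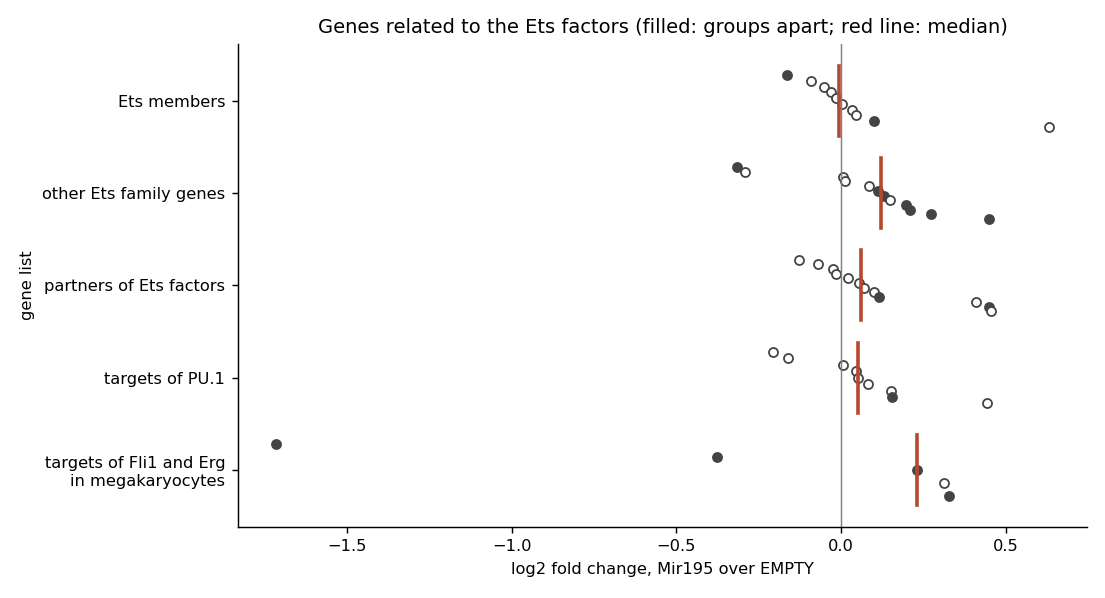
Log2 fold change of Mir195 over EMPTY for each tested gene of the Ets factors and of 4 lists of related genes, with filled points where the groups did not overlap and a red line at the median of each list. The median of the 10 Ets factors lies at -0.01, and those of the other lists between 0.05 and 0.23, the last of which was 0.01 without EMPTY replicate 1.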

How the data were processed

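Cy3-labelled RNA of 4 samples, 2 per virus by their titles, was hybridised to Agilent mouse arrays. For each spot the authors deposited an intensity from which background had been subtracted by Agilent Feature Extraction 11.5.1.1, and their own log2 values for each probe, set to the 75th percentile of an array. Here the log2 intensity was averaged over the spots of a probe, and the array's 75th percentile was subtracted. Control spots were dropped, and 0 spots were saturated. Outlier spots (21 to 65 on an array) were left out when the 75th percentile was taken. Symbols came from the accession in GRCm38.p6 for 26055 probes, and from the array for the rest. A probe was tested if both arrays of either virus had it well above background and no array had an outlier spot for it, which left 23722. The lmFit and eBayes functions of limma (version 3.58.1) were run in R (version 4.3.3). Tests were two-sided, the adjustment of Benjamini and Hochberg ran over all tested probes, and the threshold was 0.05. The fit was tested on simulated data with known changes. The number of arrays limits the precision.

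Every Ets probe was named. A gene's leading probe had the highest mean. Of each related list, the genes named were the up to 3 of largest absolute log2 fold change among those well above background on all 4 arrays whose groups did not overlap, since 0 passed the threshold. Not every gene so chosen is reported here. The members and lists were chosen with earlier results of these data known. The methods' t-test, other scalings, background corrections, filters and pairings were run as alternatives.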

Additional observations from a re-analysis of the deposited data

How the results depend on the processing

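No alternative called an Ets probe. Over all probes, 0 were called, but 3 under median scaling, 5 with the replicate number as a block, and 0 to 900 when 1 array was left out, the 900 without *Mir195* replicate 1 and 3 without *Mir195* replicate 2. In such a fit the lone sample is assumed to vary like the other group, and all the spread comes from 2 arrays. The difference between replicates 1 and 2 with EMPTY and that with *Mir195* had a correlation of -0.10 over the tested probes. The numbers thus gave no sign of pairing, which 1 difference per virus cannot settle. With the numbers crossed, chosen after seeing the data, 0 probes were called. The methods' t-test gave 1133 probes at an unadjusted p under 0.05 and 0 after Benjamini-Hochberg adjustment.

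Signs turned for small changes. Normexp background correction with an offset of 50 gave 0.017 for *Ets1* A_52_P232830, 0.019 for *Gabpa* A_51_P364984 and 0.042 for *Etv1*. Quantile normalization gave 0.012 for *Spib* and -0.088 for *Elf4*. Median scaling, which moved the median of all probes from 0.013 to -0.084, gave -0.054 for *Fli1*, -0.0061 and -0.064 for the *Elf1* probes and -0.096 for *Elf4*, and left 2 of 10 leading probes higher. It also turned the medians of the partners to -0.037 and of the PU.1 targets to -0.046. Taking the percentile from the detected probes alone gave 0.0052 for *Ets1* A_52_P232830 and 0.0020 for *Gabpa* A_51_P364984. The mean of both *Ets1* probes was 0.11. When 1 array was left out, the range was -0.090 to 0.57 for *Ets1* A_52_P194250, -0.048 to 0.016 for *Ets1* A_52_P232830, -0.19 to 0.0048 for *Spi1*, -0.084 to 0.025 for *Spib*, -0.020 to 0.20 and -0.034 to 0.10 for the *Elf1* probes, -0.12 to 0.12 for *Elf4*, and -0.10 to 0.0026 for *Gabpa* A_52_P152283. The list medians ranged from 0.068 to 0.22 for the other Ets genes, 0.029 to 0.12 for the partners, -0.032 to 0.12 for the PU.1 targets and 0.012 to 0.26 for the *Fli1* and *Erg* targets, *Itgb3* from -0.50 to -0.25, and *Etv1* from -0.51 to -0.12. Median scaling gave 0.059 for *Flt3*, 0.18 for *Elk4* and 0.017 for *Lmo2*. The causes were not tested. *Ets2* and *Etv6* kept their signs under each alternative. Their groups lay apart, so leaving out 1 array could not turn the sign. The other filters, the blocks and the t-test left the estimates as they were. With a filter for detection on all 4 arrays *Erg* was not tested.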

Other observations

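*Elk1*, a partner of SRF in the other Ets genes, had probes whose estimates differed in sign. Their levels also lay far apart. A_55_P1954986, well above background on all 4 arrays, read 8.22 and 8.40 with EMPTY and 8.54 and 8.48 with *Mir195*. Its log2 fold change was 0.20 (adjusted p = 0.806). A_66_P103818, well above background on 3 arrays, read only -5.20 and -5.43 with EMPTY and -6.00 and -5.45 with *Mir195*. Its log2 fold change was -0.42 (adjusted p = 0.746). Neither passed the threshold, and the difference between them was not tested.

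Some related genes, chosen after their values were seen, read alike on EMPTY replicate 2 and *Mir195* replicate 1 and lower on the other arrays. *Etv5* read 0.65 and 1.22 with EMPTY and 1.5 and 0.67 with *Mir195*. *Erf* read 1.40 and 1.80 with EMPTY and 1.82 and 1.38 with *Mir195*. *Myb* read 4.01 and 4.34 with EMPTY and 4.29 and 4.03 with *Mir195*. Within each virus these genes thus differed between arrays by more than their means differed between viruses.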
